A study of Homo sapiens with 7 samples.

Results

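Close tandem poly(A) sites (PASs) are PASs of 1 last exon that lie within 300 nt of each other. Members were genes with at least 2 last-exon PASs on a protein-coding RefSeq transcript in the table of batch 1 and at most 300 nt between the lowest and the highest of them. There were 1336 such genes with 2977 PASs, or 15.5% of the 8640 genes with 2 or more such PASs, among 15510 genes listed. In each gene the first PAS in the direction of transcription was set against the last. The choice used no read number itself, but the study listed a PAS only if it passed read limits in at least 1 sample. A PAS could thus be listed for the reads of 1 library. Of the members, 1071 (80.2%) had 2 PASs, 232 had 3 and 33 had more. The distance between first and last PAS was 122.5 nt at the median, with quartiles of 67 and 206 nt, against a median of 2557 nt in the other 7304 genes. In 22 members the first or last PAS was also listed for another gene, so its reads cannot be given to 1 gene alone.

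An mRNA 3′ end is made by cleavage of the nascent RNA and addition of a poly(A) tail by a poly(A) polymerase (PAP). Cleavage is guided by a hexamer, AATAAA or a variant of it in DNA letters, which CPSF binds upstream of the site, and by other elements bound by CstF and CFI. PASs in tandem in a last exon give mRNAs with the same coding sequence and 3′UTRs of different length. PAPα and PAPγ are canonical nuclear PAPs, and Star-PAP is a noncanonical one for which binding to AUA-containing RNA has been described.

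The data were 3′ end reads of HEK293 cells, an established human embryonic kidney line, after siRNA knockdown (KD). Batch 1 held 1 library each of siCtrl (control siRNA), siStar-PAP, siPAPα and siPAPγ. A double KD of PAPα and PAPγ (siPAPα+siPAPγ, batch not given) was listed beside the same siCtrl library, with the same siCtrl reads at both PASs in 928 of 951 members matched. Batch 2, made with 3′READS+ in place of 3′READS, held a further siCtrl and a further siStar-PAP library, so that batch and protocol cannot be told apart. Each condition had 1 library per batch, and differences between libraries of 1 batch therefore have no replicate check.

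The tables held between 2362875 and 16245257 reads per library, of which the last-exon PASs of members took 6.22% to 7.28% of own-strand reads in batch 1 and 9.05% to 9.68% in batch 2. Reads of TUT1, which encodes Star-PAP, were 83 in siCtrl and 2 in siStar-PAP, but 6 and 4 in batch 2, where the ratio after scaling by library depth was 0.792 with an exact counting interval of 0.164 to 3.34. PAPOLA (PAPα) had 71 reads in siCtrl, 12 in siPAPα and 8 in the double KD. PAPOLG (PAPγ) had 5 reads in siCtrl, 15 in the library labelled siPAPγ and 6 in the double KD, a ratio of 2.32 (0.800 to 8.15) in siPAPγ, so that its few reads did not show the KD. The KDs were examined by immunoblot in the study, and these tables hold no protein values. The mesenchymal marker VIM had at least 340 reads in each library, while the leukocyte marker PTPRC and the liver marker ALB were at 0 in all of them.

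Sequences of 4 members that the results turn on show how near the paired sites are and which hexamer precedes each. They are the 30 bases that end at the listed PAS, 5′ to 3′ on the strand of the gene, in hg19, with the best-ranked hexamer in capitals (AATAAA, then ATTAAA, then any of the 10 variants AGTAAA or TATAAA or CATAAA or GATAAA or AATATA or AATACA or AATAGA or ACTAAA or AAGAAA or AATGAA). All 8 PASs shown lie in the annotated 3′UTR.
OAZ1 first site, chr19:2273211-2273240, plus strand: gtaatcgtgcaAATAAAcgctcactccgaa
OAZ1 last site, chr19:2273458-2273487, plus strand: tccaaaagccAATAAAgtgattacacccga
ADCY3 first site, chr2:25042142-25042171, minus strand: tgttaAATACActttccgatattgccttgc
ADCY3 last site, chr2:25042038-25042067, minus strand: gttttATTAAAagctttattcaacttgaaa
KCNK1 first site, chr1:233807956-233807985, plus strand: gaatAATAAActtgagagtgaataaccata
KCNK1 last site, chr1:233807995-233808024, plus strand: tgcAATAAAtgtttctaccctcttgcgata
ARF1 first site, chr1:228286797-228286826, plus strand: tactgctttcAATACAcgattagtaatcaa
ARF1 last site, chr1:228286881-228286910, plus strand: tagctattagAATAAAatctcttaactatt
In OAZ1 and KCNK1 both PASs followed AATAAA, and in ARF1 only the last did. ADCY3 had AATACA before the first PAS and ATTAAA before the last.

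Across all members, a hexamer of this set stood within 40 nt of 83.6% of first PASs (95% exact interval 81.5% to 85.6%) and 81.4% of last PASs (79.2% to 83.5%). AATAAA itself was found at 44.5% of first and 47.8% of last PASs. In the other genes with 2 or more PASs the same shares were 37.0% and 58.9%, at single PASs of a last exon 69.2%, and at all last-exon PASs 46.4%. Close pairs thus differed little in AATAAA between first and last PAS, and the wider pairs differed by more. Only the strand of the gene was searched. An ATA trimer in the 60 bases upstream of that window was found at 54.6% of first and 71.0% of last PASs, against 59.6% of all last-exon PASs. In the other genes with 2 or more PASs the shares were 53.8% and 62.0%. AATAAA itself holds ATA, and in close pairs these bases of the last PAS can include the hexamer of the first. It was not masked, and its part in the ATA shares was not tested.

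In the annotation, 97.3% of first PASs and 79.5% of last PASs lay in a 3′UTR, and 18.1% of last PASs lay beyond annotated exons. An annotated transcript end was within 24 nt of 31.9% of first PASs, 62.9% of last PASs and both PASs in 15.0% of members.

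In siCtrl of batch 1, 946 members had at least 20 reads at first and last PAS together. The last PAS took 58.7% of these reads at the median, and each of the pair took over 10% in 52.0% of members. The last PAS had more reads in 511 members and the first in 431. By the hexamer, the median share of the last PAS was 87.4% where only the last PAS had AATAAA (quartiles 51.9% and 95.4%, 261 members) and 14.6% where only the first had it (5.57% and 61.6%, 235 members). It was 46.7% where both had it and 71.4% where neither had it. These are single-library values over genes, and in 117 members near enough for both windows to hold the same hexamer, 6 did so for AATAAA or ATTAAA.

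**Figure D1:**
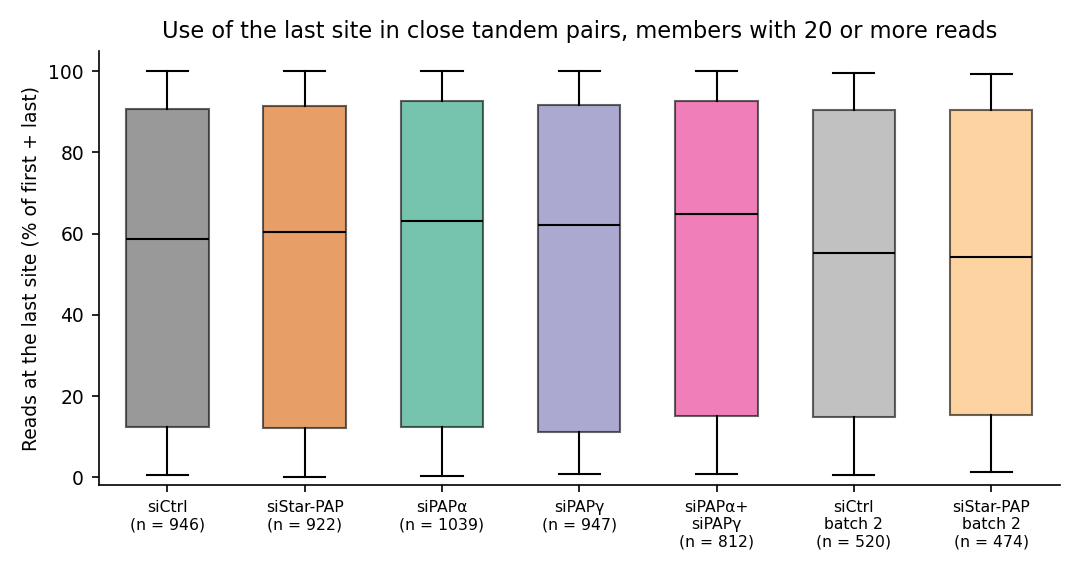
Share of reads at the last PAS, in percent of first and last PAS reads, over members with 20 or more reads in each library. Boxes give quartiles and median, and whiskers the 5th and 95th percentiles; the medians lie between 54.2% and 64.7% and the boxes of all 7 libraries overlap.

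The KDs left the middle of this distribution near its place while many single pairs moved. For the last PAS, siStar-PAP had a median share of 60.4%, siPAPα 63.0%, siPAPγ 62.2% and the double KD 64.7%, as the plot of last-site shares shows. The double KD is over the 951 members matched in its table, where siCtrl had 60.9%. In reads pooled over members, the last PAS took 40.9% in siCtrl and 46.4%, 48.5% and 49.1% in the KDs of batch 1 (siStar-PAP, siPAPα, siPAPγ). TYMS alone carried part of that gap, since without it the pooled shares were 46.6%, 48.5%, 50.4% and 51%.

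The change of each pair was taken as the relative expression difference (RED), log2 of the last-to-first read ratio in the KD minus that in siCtrl, for pairs with more than 50 reads in both libraries together. In siStar-PAP, 250 of 897 members tested were past 2-fold towards the last PAS and 224 towards the first. Together these were 52.8% of members, beside 57.6% of all 4465 genes tested, of which 29.9% were towards the last and 27.7% towards the first PAS. The median RED was 0.03 (95% interval over genes −0.08 to 0.13) in members and 0.04 in all genes. Members had 365 reads at the median and all genes 230, and the part of depth in these shares was not tested. A call here is a fold, with no replicate behind it.

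In siPAPα, 307 of 964 members were past 2-fold towards the last PAS and 237 towards the first, together 56.4% of members beside 62.6% of all genes. The background was 36.9% towards the last and 25.7% towards the first PAS. The median RED was 0.19 (0.05 to 0.33) in members and 0.34 in all genes.

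In siPAPγ, 238 of 910 members were past 2-fold towards the last PAS and 189 towards the first, together 46.9% beside 53.8% of all genes (27.4% last, 26.4% first). The median RED was 0.11 (−0.07 to 0.23) in members and 0.03 in all genes.

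In the double KD, 252 of 781 members were past 2-fold towards the last PAS and 25.7% of them towards the first, together 58.0% beside 62.2% of all genes (39.8% last, 22.4% first). The median RED of members was 0.16 (0.00 to 0.31), while that of all genes was 0.52. Of the members past 2-fold, 168, 157, 115 and 114 in siStar-PAP, siPAPα, siPAPγ and the double KD had a count of 0 at a PAS. With a 0 read as up to 3 reads, 42.4%, 46.0%, 37.5% and 50.6% of members stayed past 2-fold, beside 46.0%, 50.2%, 42.8% and 54.7% of all genes.

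With an adjusted p below 0.05 in Fisher's exact test required as well, the share of members past 2-fold was 33.8% in siStar-PAP beside 35.8% of all genes. The same shares were 37.2% and 39.9% for siPAPα, 24.1% and 28.4% for siPAPγ, and 42.4% and 45.1% for the double KD.

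The PAS with more reads changed in 7.17%, 7.80%, 5.95% and 8.49% of members with 20 or more reads in both libraries, beside 8.04%, 9.43%, 7.77% and 10.2% of all genes. Most pairs therefore kept their major PAS in each KD. The level of each PAS, as log2 of reads scaled by library depth relative to siCtrl, had medians of −0.53 for first and −0.47 for last PASs of members in siStar-PAP. siPAPα gave −0.31 and −0.15, siPAPγ −0.31 and −0.24, and the double KD −0.49 and −0.34. All genes tested had medians of −0.53 and −0.50, −0.45 and −0.15, −0.37 and −0.34, and −0.66 and −0.20 in the same order. With TMM or DESeq2 scaling the medians of members lay between −0.09 and 0.23, so no direction is given for levels. The scaling cancels in RED. The libraries are bulk RNA, so fewer cells with an RNA and less of it per cell cannot be told apart.

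Named members show the range of single pairs. The KDs of batch 1 and the double KD share 1 siCtrl library, so like changes in them are not independent. OAZ1, the antizyme that restrains polyamine synthesis, had 6749 first-site and 3473 last-site reads in siCtrl (34.0% last). In the KDs the last PAS took 60.7% (siStar-PAP), 71.7% (siPAPα), 59.4% (siPAPγ) and 66.3% (double KD). RED was 1.59, 2.30, 1.51 and 1.93, all past 2-fold, with log2 levels of −0.58 to −1.31 at the first and 0.63 to 1.01 at the last PAS. In batch 2 the share was 31.8% in siCtrl and 31.7% in siStar-PAP, with a RED of −0.01 (−0.65 to 0.63), so the change of batch 1 was not seen there.

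ADCY3, an adenylyl cyclase that makes cAMP, had 424 first-site and 31 last-site reads in siCtrl, 6.81% last. This share was 11.9% after KD of Star-PAP, and siPAPα had 64.4%, siPAPγ 60.4% and the double KD 63.7%. RED was 0.87 in siStar-PAP against 4.60, 4.36 and 4.56 in the other KDs, and Fisher's exact test gave adjusted p values of 2.07e-96, 4.49e-65 and 4.95e-81 for these. The last PAS was the major one in the 3 KDs of canonical PAPs and the first in siCtrl and siStar-PAP of batch 1. In batch 2, ADCY3 had 18 and 4 reads in siCtrl and 1 and 13 in siStar-PAP. On these few reads the last PAS was the major one in siStar-PAP too, unlike in batch 1. These tests compare the reads of 2 libraries, not the conditions.

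SLC35C2, a member of the nucleotide-sugar transporter family, had 3.83% of reads at the last PAS in siCtrl. siStar-PAP had 7.23%, siPAPα 19.0%, siPAPγ 8.84% and the double KD 18.9%, with RED of 0.97, 2.55, 1.28 and 2.55. First-site reads were 7853 in siCtrl and 3475 in siPAPα, and last-site reads 313 and 813. MRPS18A, a mitochondrial ribosomal protein, had 5.60% in siCtrl and 7.63%, 15.3%, 9.47% and 10.9% in the KDs, past 2-fold in siPAPα (RED 1.60) and the double KD (1.04).

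TYMS, which makes thymidylate for DNA synthesis, was the member with the most reads, 71450 at the first and 1296 at the last PAS in siCtrl (1.78% last). siStar-PAP had 7.74%, siPAPα 4.69% and siPAPγ 4.27%, with RED of 2.21, 1.44 and 1.30. Log2 levels relative to siCtrl were −1.71, −1.87 and −1.98 at the first PAS and 0.50, −0.43 and −0.68 at the last. TYMS was not matched in the other 2 tables. KCNK1, a potassium channel with PASs 39 nt apart, had 11.3% in siCtrl and 12.7%, 21.1%, 18.4% and 17.5% in the KDs, with RED past 2-fold in siPAPα (1.08) and below it in the others (0.20, 0.83 and 0.74).

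ARF1, a GTPase of Golgi traffic, went the other way. Its last PAS took 66.4% of reads in siCtrl, while siStar-PAP had 55.8%, siPAPα 36.9%, siPAPγ 46.6% and the double KD 42.2%, with RED of −0.65, −1.76, −1.18 and −1.43. In batch 2 it took 63.5% in siCtrl and 56.5% in siStar-PAP, a RED of −0.42 (−0.63 to −0.22) with the same sign as in batch 1. GNPAT, an enzyme of plasmalogen synthesis, had 245 first-site and 28 last-site reads in siCtrl. In siStar-PAP there was 1 last-site read. siPAPα had 457 and 15, siPAPγ 400 and 1, and the double KD 558 and 11.

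**Figure D2:**
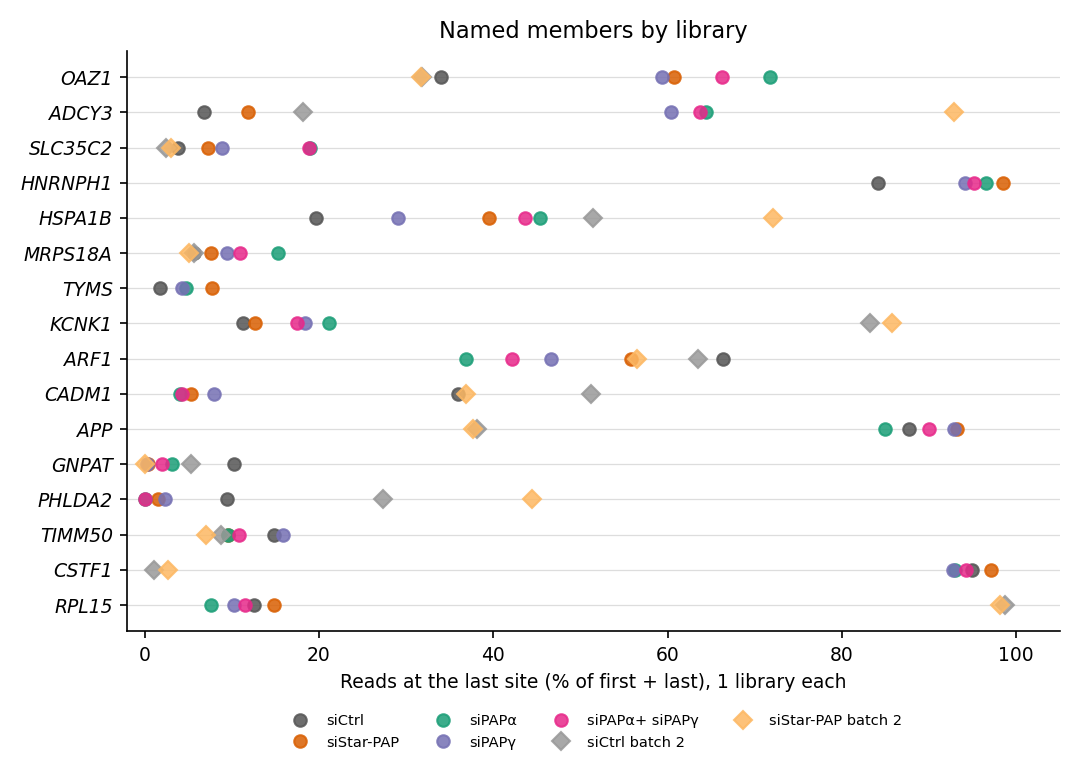
Share of reads at the last PAS (percent of first and last, 1 library per point) in 16 named members; circles are the siCtrl library of batch 1, the KDs of batch 1 and the double KD, diamonds are batch 2. OAZ1 lies at 34.0% in siCtrl and between 59.4% and 71.7% in the 4 KDs, while CSTF1 and RPL15 lie near opposite ends in the 2 batches.

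Some other most-read members stayed within the 2-fold limit. DSP, a desmosome protein, held 5.84% of reads at the last PAS in siCtrl and 5.86%, 7.77%, 7.25% and 5.83% in the KDs. TIMM50, part of the mitochondrial import machinery, held 14.8% and then 9.53%, 9.60%, 15.9% and 10.8%. APP, the amyloid precursor, held 87.7% and then 93.2%, 85.0%, 92.9% and 90.0%. None of these 3 was past 2-fold in a KD, but APP came near it, with RED of 0.94 in siStar-PAP and 0.87 in siPAPγ. TIMM50 had −0.72 in siStar-PAP and −0.70 in siPAPα. Fisher's exact test on so many reads also called smaller changes, such as a RED of 0.44 in DSP in siPAPα (adjusted p = 3.76e-11).

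Members with the largest RED were pairs in which 1 PAS had few reads. In siStar-PAP, KRT10, a keratin, went from 26 first-site and 202 last-site reads to 0 and 251, at least 10.8-fold towards the last PAS with 0 read as up to 3. HSD17B4, a peroxisomal β-oxidation enzyme, went from 21 and 161 to 0 and 220, at least 9.57-fold. EXOC3, an exocyst subunit, went from 233 and 0 to 139 and 13, at least 7.26-fold. Towards the first PAS, COX6C of cytochrome c oxidase went from 148 and 31 to 149 and 0, at least 10.4-fold, and MRPS14 from 99 and 11 to 153 and 0, at least 5.67-fold. In batch 2, COX6C had 703 and 1 in siCtrl and 751 and 3 in siStar-PAP. HSPA2, an HSP70 family member, went from 0 and 151 to 17 and 102, 8.39-fold. In batch 1 the last PAS of EXOC3 and the first PAS of HSPA2 had reads in siStar-PAP only. Their listing can rest on the library in which they are high, so these changes carry no support of their own.

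In siPAPα, RBBP7, a histone-binding protein, went from 35 first-site and 435 last-site reads to 0 and 559, 15.0-fold towards the last PAS, and had 2 and 376 in the double KD. WRNIP1, a partner of the Werner helicase, went from 13 and 111 to 0 and 326, 12.7-fold, and had 0 and 144 in the double KD. ATPAF2, an ATP synthase assembly factor, went from 200 and 0 to 121 and 10, 5.51-fold. Towards the first PAS, PHLDA2, an imprinted growth regulator, went from 163 and 17 to 515 and 0, 17.9-fold, and FAM60A, a Sin3 complex subunit, from 146 and 12 to 320 and 0, 8.77-fold. COG2, of a Golgi tethering complex, went from 4 and 1533 to 28 and 477, a RED of −4.35.

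In siPAPγ, TRIM39, a ubiquitin ligase, went from 15 first-site and 157 last-site reads to 0 and 166, 5.29-fold towards the last PAS. IL20RA, a cytokine receptor, went from 309 and 16 to 320 and 0, 5.52-fold towards the first. IFNAR2, an interferon receptor subunit, went from 2 and 296 to 11 and 125, a RED of −3.44. In the double KD, DUS1L, a dihydrouridine synthase relative, went from 12 and 90 to 0 and 203, 9.02-fold towards the last PAS. DIS3L2, an exonuclease for uridylated RNA, went from 333 and 3 to 75 and 26, a RED of 5.06. Towards the first PAS, B3GAT3, a glycosyltransferase of proteoglycan synthesis, went from 103 and 20 to 186 and 0, 12.0-fold, and LAMA5, a laminin chain, from 94 and 15 to 162 and 0, 8.62-fold. The rule chose these genes for their RED, so the values describe them and are not tested. In KRT10, HSD17B4, RBBP7, WRNIP1, PHLDA2, TRIM39, DUS1L and GNPAT, among others, the weaker PAS had its largest share of batch 1 in siCtrl. Its listing can rest on siCtrl, so a fall of its share in the KDs carries no support of its own.

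Gene groups were small among members. All genes tested gave 36.9% past 2-fold towards the last and 25.7% towards the first PAS in siPAPα, and 39.8% and 22.4% in the double KD. Of 10 translation initiation and elongation factors, 6 were past 2-fold towards the first PAS and 1 towards the last in siPAPα (median RED −1.61), and 5 and 2 in the double KD (−0.89), while EIF2B3, the member with the most reads, had RED of 0.45 and −0.25. These factors gave 2 towards the first and 3 towards the last PAS in siStar-PAP (median −0.12), and 1 and 2 of 9 in siPAPγ (0.18). Of 12 cytosolic ribosomal protein genes tested, 5 were past 2-fold towards the first and 2 towards the last PAS in siPAPα, 2 and 2 in siPAPγ, 2 and 0 in siStar-PAP, and 2 and 2 of 10 in the double KD. Of 13 oxidative phosphorylation subunits, 5 and 3 were in siPAPα, 4 and 2 in siStar-PAP, 3 and 2 in siPAPγ, and 3 and 1 of 10 in the double KD, with NDUFA9 at a RED of 0.11 in siPAPα and −0.93 in the double KD. Proteasome genes gave 2 of 3 towards the first PAS in siPAPα and in the double KD and 0 of 3 past 2-fold in siStar-PAP and siPAPγ, among them the chaperone PSMG4 (RED −1.06). Of 5 splicing proteins, 3 were past 2-fold towards the last and 1 towards the first PAS in the double KD. The counts were 2 and 1 in both siStar-PAP and siPAPγ, and 2 and 0 in siPAPα. Among them, HNRNPH1 had 84.2% of reads at the last PAS in siCtrl and 98.5%, 96.5%, 94.1% and 95.2% in the KDs (RED 3.53, 2.37, 1.57 and 1.89).

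Of 10 chaperones, 4 were past 2-fold towards the last PAS and 3 towards the first in both siStar-PAP and siPAPα, 2 and 3 in siPAPγ, and 4 and 2 of 9 in the double KD. HSPA1B, a stress-induced HSP70, had 19.7% of reads at the last PAS in siCtrl, and 39.5%, 45.4%, 29.1% and 43.6% in the KDs, and in batch 2 51.4% in siCtrl and 72.1% in siStar-PAP. Its RED in siStar-PAP was 1.41 in batch 1 and 1.29 in batch 2 (1.35 over both in edgeR, adjusted p = 0.643), although its near-identical copy HSPA1A makes these counts uncertain. Zinc finger genes gave 8 of 15 towards the first PAS and 1 towards the last in the double KD (median RED −1.18), 7 and 4 of 20 in siPAPα, and 4 and 1 of 20 in both siStar-PAP and siPAPγ, but ZNF598, a sensor of stalled ribosomes, was at 0.01 in the double KD. Solute carriers (8 each way of 20), vesicle traffic genes (11 and 7 of 24), mitochondrial ribosomal proteins (3 and 1 of 9) and ubiquitin genes (1 each way of 5) gave both directions in the double KD. USP1, a deubiquitinase of DNA repair, had a RED of −0.78 in siPAPα and −0.11 in the double KD. Of the 3 genes of 3′ end processing, 0 were past 2-fold in siPAPα, siPAPγ or the double KD and 1 was in siStar-PAP, while CSTF1, a CstF subunit, stayed between 92.7% and 97.1% last in batch 1 and the double KD.

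Among the genes tested for each KD, close and wider pairs differed most in the double KD. These gene sets are unlike, since the double KD had only the genes matched in its table. At 3000 nt or more it had 639 genes tested, against 1430 in siPAPα, 1215 in siStar-PAP and 1250 in siPAPγ. The KDs were not compared on a common set of genes. In the double KD, median RED was 0.29 for pairs at most 50 nt apart, −0.00 above that up to 100 nt, 0.16 up to 200 nt and 0.14 up to 300 nt. In wider pairs it was 0.41 under 1000 nt, 0.65 from 1000 nt to under 3000 nt and 0.94 (0.70 to 1.20) at 3000 nt or more. In siPAPα the 4 close classes gave 0.39, 0.21, 0.06 and 0.29, and the wider ones 0.28, 0.44 and 0.36. In siStar-PAP and siPAPγ medians were between −0.13 and 0.33 in close classes and between −0.03 and 0.12 in wider ones. Wide pairs had fewer reads, 181 at the median at 3000 nt or more beside 506 at up to 50 nt in the double KD, and the part of depth in the trend was not tested. Within 10 nt of the limit lay 36 members inside and 31 genes outside, of which those with enough reads gave median RED of −0.12 (23 members) and 0.03 (17 genes) in siStar-PAP. siPAPα gave −0.15 (27) and 0.02 (20), and siPAPγ 0.06 (24) and 0.15 (17).

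**Figure D3:**
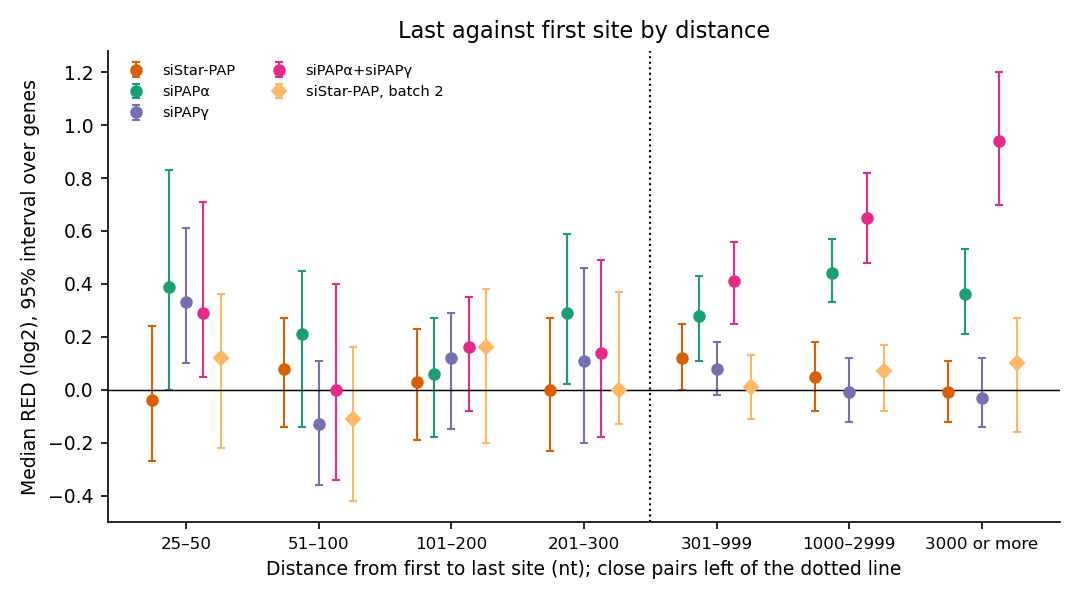
Median RED (log2) by distance between first and last PAS in nt, with 95% intervals from order statistics over genes, for 4 KDs against siCtrl and for siStar-PAP in batch 2. The double KD lies between −0.00 and 0.29 in close pairs and reaches 0.94 in the widest class, while siStar-PAP stays between −0.04 and 0.12.

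Members were also grouped by the hexamer, which their choice did not use. Where only the last PAS had AATAAA, median RED was 0.62 in siPAPα (0.30 to 0.93, 271 members) and 0.66 in the double KD (0.32 to 0.93, 225 members). There, 114 members were past 2-fold towards the last and 52 towards the first PAS in siPAPα. All genes of this class gave 717 and 396 of 1720. Where only the first PAS had it, median RED was −0.18 (−0.49 to 0.15) in siPAPα and −0.11 in the double KD. In siPAPα, 58 and 66 of 238 members of this class were past 2-fold towards the last and the first PAS, beside 249 and 252 of 832 of all genes. In siStar-PAP the medians were 0.14 (−0.06 to 0.42) and −0.10 (−0.35 to 0.15), in siPAPγ 0.25 (−0.07 to 0.45) and 0.08 (−0.25 to 0.25), and in siStar-PAP of batch 2 0.15 and 0.18, with intervals that overlap. Where both PASs or neither had it, siPAPα gave 0.04 and 0.24 and the double KD −0.14 and 0.17. All genes gave 0.57 and −0.02 in siPAPα. The intervals are over genes of 1 pair of libraries, and siPAPα and the double KD share siCtrl.

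Members with ATA upstream of the first PAS only had a median RED of 0.46 (−0.14 to 0.67, 111 members) in siStar-PAP. Those with ATA at the last PAS only, at both or at neither had 0.01, 0.00 and 0.02. In these classes, too, ATA upstream of the last PAS can be part of an AATAAA of the first. The class with ATA at the first PAS only gave 0.35 (0.17 to 0.73, 92 members) in the double KD, 0.20 (−0.15 to 0.34) for siPAPγ and 0.15 (−0.09 to 0.60) for siPAPα. In all genes siStar-PAP gave 0.27 (0.10 to 0.41) for this class, and in batch 2 the members gave 0.05 (−0.44 to 0.29, 58 members).

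**Figure D4:**
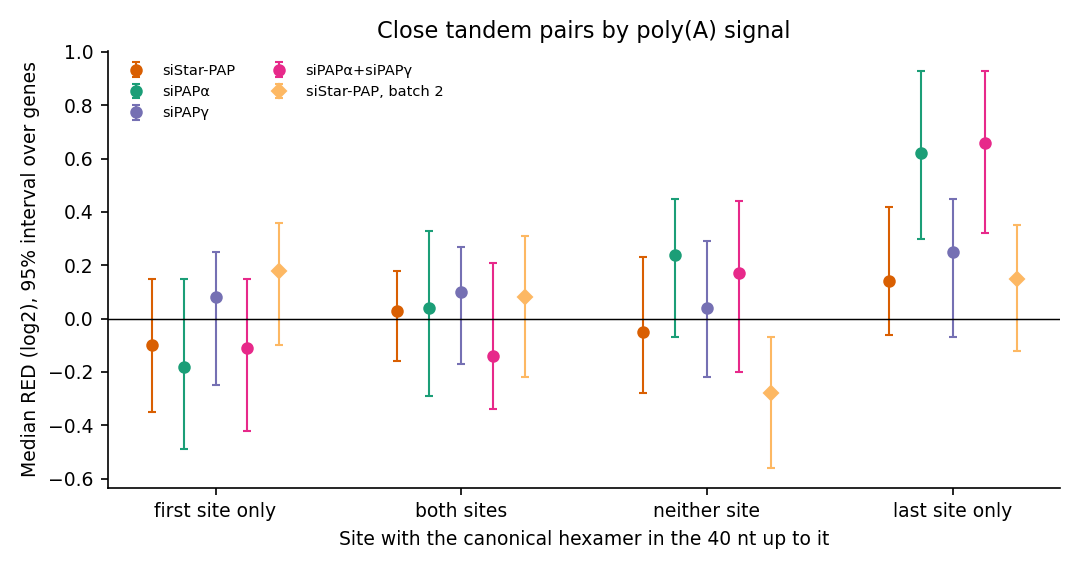
Median RED (log2, 95% intervals over genes) of members grouped by which PAS had AATAAA within 40 nt. siPAPα and the double KD lie at 0.62 and 0.66 where only the last PAS had it and at −0.18 and −0.11 where only the first had it.

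In batch 2, 649 members had both PASs matched within 24 nt. There, 21.5% of 470 members tested were past 2-fold towards the last PAS and 19.1% towards the first, together 40.6% beside 42.8% of all genes (22.7% and 20.1%), with a median RED of 0.06. Past 2-fold with an adjusted Fisher's exact p below 0.05 were 8.09% of members and 8.46% of all genes, and the major PAS changed in 4.43% and 5.23%. Across the 444 members tested in both batches, RED in batch 1 and in batch 2 had Pearson's r = −0.0635 and Spearman's rho = −0.0610, and 48.9% had the same sign. All 1614 genes gave r = 0.0940 and 54.6%. The batches share no library, and genes are not independent replicates, so these values describe the libraries.

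A larger share of members was past 2-fold between the 2 siCtrl libraries than between any KD and its own siCtrl. Of 587 members, 75.8% were past 2-fold between them (75.2% of all genes), and the major PAS changed in 24.7% of 498. RPL15, a 60S ribosomal protein, had 3770 first-site and 540 last-site reads in siCtrl of batch 1 but 2 and 148 in batch 2, and CSTF1 had 59 and 1104 but 93 and 1. KCNK1 had 11.3% and 83.2% of reads at the last PAS, and APP 87.7% and 38.1%. Reads of ribosomal protein genes can be shared with near-identical pseudogenes, and only uniquely mapped reads were counted. In these 4 genes the siStar-PAP share lay nearer to its own siCtrl than the 2 siCtrl libraries lay to each other. RPL15 had 14.8% beside 12.5% in batch 1 and 98.2% beside 98.7% in batch 2. RED of siStar-PAP still reached 0.94 for APP in batch 1, and 0.84 and 0.94 for CSTF1 in batches 1 and 2.

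In the fit over both batches (edgeR quasi-likelihood test with batch as a block), 0 of 617 members passed an adjusted p of 0.05, beside 0.120% of the 2495 genes tested. At an unadjusted p below 0.05 there were 34 members, or 5.51%, beside 6.69% of all genes, and DESeq2 called 0 members with 25 at that level. The smallest adjusted p of a member was 0.178. The fit had 1 residual degree of freedom per gene. Its prior degrees of freedom were infinite, so the edgeR p values rest on a spread pooled over genes and not on that of each gene.

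**Figure D5:**
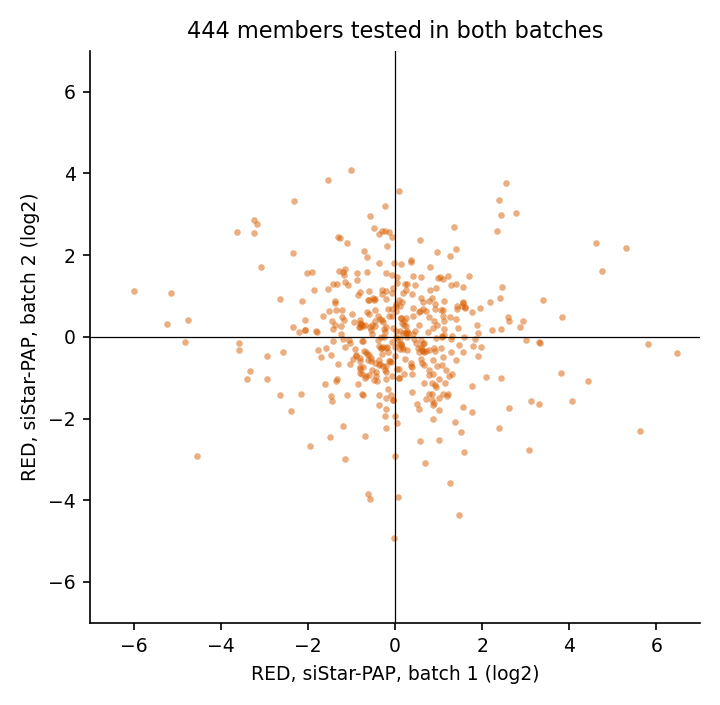
RED (log2) of siStar-PAP against its own siCtrl in batch 1 (horizontal) and batch 2 (vertical) for the 444 members tested in both. The points scatter around 0 in all 4 quadrants, with r = −0.0635.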

How the data were processed

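Reads of 7 libraries of 3′ ends (3′READS, or 3′READS+ in batch 2) were analysed. Reads were aligned by the authors to hg19 (Bowtie2, local mode). Those with a unique position and T bases that do not match the genome, left from the tail, were used by the authors, who clustered PASs within 24 nt and deposited read counts per PAS in 3 tables, not normalized. All columns were mapped to a library from its label. Members and gene lists were chosen with earlier results of these data known. PASs of other tables were matched within 24 nt. RED used 0.5 reads added to each count, more than 50 reads and a 2-fold limit. Single pairs had a two-sided Fisher's exact test with Benjamini-Hochberg adjustment over all genes tested. Levels were scaled by the study's totals of PAS-supporting reads. siStar-PAP over both batches was fitted with edgeR 4.0.16 in R 4.3.3 (quasi-likelihood test on first-site and last-site counts, with terms for library, site, site by batch and site by KD), with DESeq2 1.42.0 as an alternative. Batch is a block because each has its own protocol and siCtrl; deviations of log2 last-to-first ratios from the condition mean correlated at r = 0.705 between libraries of the same batch over 2616 genes.

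Named genes were the 8 most-read members, the 3 largest and 3 smallest RED in each KD of batch 1 and the double KD among members with at least 100 reads in each library and 10 at each PAS in 1 library, members called over both batches (0), genes the study followed up (0 were members) and the most-read member of each of the gene lists. Of these, 1 gene is not reported here. Sequences came from the GRCh37 primary assembly and positions in genes from GENCODE, of the same build. Intervals of shares are exact Clopper-Pearson at the 95% level and those of medians come from order statistics. Both cover counting error or the spread over genes only. A count of 0 was read as up to 3 reads. Whether siCtrl and siStar-PAP of the 2 batches came from separate cultures is not given in the sources used here. The edgeR p values over both batches thus measure the spread between these libraries, pooled over genes. Simulated counts with 16-fold changes were used to check the calls. Their genes were those matched in both batches, and last-site shares before any change were kept off the extremes. The false calls thus do not cover unchanged pairs with a nearly empty PAS. Over both batches, edgeR recovered 142 of 200 changed genes with 2 false calls, and DESeq2 124 with 2, so such changes can be missed. In siStar-PAP of batch 1, with counting error as the only spread, the 2-fold limit recovered 181 of 183 but made 183 false calls. These were among 2292 genes, and adding Fisher's exact test gave 167 and 1. A 2-fold call alone can therefore arise from counting error. The alternatives are listed at the end. Python 3.11.15 with scipy 1.17.1 and matplotlib 3.10.9 was used.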

Additional observations from a re-analysis of the deposited data

Results flagged for a closer look

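In 3 named members, RED of siStar-PAP with 0.5 reads added had one sign in batch 1 and the other in batch 2, against the siCtrl of each batch, and the difference was not tested. RED of COX6C was −5.99 in batch 1 and 1.13 in batch 2, a difference of 7.11. RED of MRPS14 was −5.15 and 1.07, a difference of 6.22, and RED of ATPAF2 was 4.44 and −1.07, a difference of −5.51. Each of these has a count of 0 at a PAS in at least 1 library, so the sizes depend on the 0.5 reads added. For ATPAF2 in batch 2 (208 and 4 reads in siCtrl, 48 and 0 in siStar-PAP), a 0 read as up to 3 leaves no change (1.00-fold). No group had the 4 samples that a search for outlying samples needs.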

How the results depend on the processing

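Values are in the order siStar-PAP, siPAPα, siPAPγ, double KD, siStar-PAP of batch 2. The share of members past the fold was 52.8%, 56.4%, 46.9%, 58.0% and 40.6%. It was 43.8%, 50.8%, 40%, 52.5% and 32.5% with more than 200 reads, 70.7%, 73.5%, 64.9%, 74.0% and 60.6% at 1.5-fold, and 28.8%, 28.4%, 20.4%, 29.6% and 14.0% at 4-fold. It was 41.2%, 47.0%, 34.0%, 47.1% and 23.4% with 5 reads added, and 33.8%, 37.2%, 24.1%, 42.4% and 8.09% with an adjusted Fisher's exact p as well. With more than 20 reads siPAPγ gave 50.8%, and with PASs as each table lists them the double KD gave 62.7% and batch 2 gave 46.2%. Median RED stayed inside its interval in 37 of 37 alternatives. Median log2 levels at first PASs were −0.09, 0.08, 0.07, −0.02 and 0.11 with TMM and −0.08, 0.04, 0.04, 0.01 and 0.03 with DESeq2 factors. At last PASs they were −0.03, 0.23, 0.14, 0.12 and 0.12 with TMM and −0.02, 0.19, 0.11, 0.15 and 0.04 with DESeq2 factors. With table totals, siPAPα, siPAPγ and the double KD gave −0.18, −0.04 and −0.22 at first and −0.03, 0.03 and −0.08 at last PASs, and with 5 reads added siPAPα gave −0.43 and −0.27. A hexamer was found at 76.3% of first and 75.3% of last PASs within 30 nt, 87.6% of last PASs within 60 nt, and 62.1% and 64.4% for AATAAA or ATTAAA only. Without TYMS, chosen after seeing the data, the pooled last-site shares of siCtrl and the KDs of batch 1 (siStar-PAP, siPAPα, siPAPγ) were 46.6%, 48.5%, 50.4% and 51%. The causes were not tested.

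Over both batches, 0 members were called with the replicate block and 0 without it (3 at an unadjusted p below 0.05), and 0 in every other alternative run. Leaving out a library leaves 1 batch and no residual degrees of freedom, so those are the single-batch values. In the comparisons of single libraries, 51 to 210 members had a count of 0 at a PAS, which limits what depth can show of their RED.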

Other observations

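The members with the smallest p values over both batches were looked up after the values were seen. CADM1, a cell adhesion molecule, had 36.0% of reads at the last PAS in siCtrl and 5.29%, 4%, 7.95% and 4.31% in siStar-PAP, siPAPα, siPAPγ and the double KD, and 51.2% and 36.9% in siCtrl and siStar-PAP of batch 2. Its log2 change over both batches was −2.14 (edgeR adjusted p = 0.178), with RED of −3.33 in batch 1 and −0.84 in batch 2. CALCB, a neuropeptide of the calcitonin family, and MAPKAP1, a subunit of the mTOR complex that phosphorylates AKT, followed with −3.29 and 6.39 (edgeR adjusted p of 0.178 and 0.179), each with 0 reads at a PAS in some libraries. CALCB gave −4.82 in batch 1 and −0.12 in batch 2, and MAPKAP1 gave 5.30 and 2.17. The first-site reads of MAPKAP1 went from 7 to 0 in batch 1 and from 2 to 0 in batch 2. Within batch 1 its first PAS had reads in siCtrl only, so its listing can rest on that library. With a 0 read as up to 3, no change is left in batch 2 for either gene (1.00-fold).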
